A study of Caenorhabditis elegans with 12 samples.

Results

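The response of adult Caenorhabditis elegans to RNA interference (RNAi) against hsp-6 was described here over all probe sets with a measurable signal. hsp-6 encodes the mitochondrial Hsp70. Mitochondrial Hsp70 pulls newly made proteins through the inner membrane and folds them with the chaperonin Hsp60. When mitochondrial protein folding is disturbed, worms can switch on nuclear genes for mitochondrial chaperones and proteases, and a separate program, the heat shock response, serves the cytosol. Mitochondria also hold their own small genome, which encodes core subunits of the respiratory chain and is translated by ribosomes whose proteins come from the nucleus.

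Both groups were synchronized worms of the N2 wild-type strain, collected as day 3 adults. From day 1 of adulthood they were fed for 3 days on Escherichia coli HT115, which carried either the empty vector or the vector against hsp-6. Eggs and larvae were rinsed off with M9 buffer, so the RNA is that of whole adults with whatever progeny remained. Of the 12 arrays in 4 groups, 6 entered the comparison, 3 for each of these groups. The other 6, with hsf-1 or dve-1 RNAi added to hsp-6 RNAi, entered the estimate of the spread, the filter on low values and the choice of 1 probe set per gene. Of 22625 probe sets, 12057 had a log2 value above 4 in at least 3 of the 12 arrays and were not controls, covering 9172 genes that have their own symbol. The labels do not say whether the 3 samples of a group were separate cultures, so the spread behind each p-value may be technical. In RNA of whole worms, fewer cells of a type and less RNA per cell cannot be told apart.

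The 6 arrays separated by treatment, but not evenly within a group. The first principal component over the tested probe sets held 53.4% of the variance, with empty vector at -41, -30 and -38.4 and hsp-6 RNAi at 26.4, 55.5 and 27.4. hsp-6 RNAi replicates 1 and 3 were nearly alike, with a median absolute difference of 0.107 on the log2 scale, against 0.238 to 0.328 for the other pairs within these groups. hsp-6 RNAi replicate 2 lay more than 2 log2 units above both others in 32 probe sets and below both in 91, and empty vector replicate 3 lay that far below both others in 106. Sperm gene levels overlapped between the groups: their mean log2 level over 45 genes was 5.73, 7.21 and 4.41 with empty vector and 6.04, 3.9 and 6.03 under hsp-6 RNAi. Embryo genes, 11 in number, averaged 7.7, 8.09 and 7.97 with empty vector and 7.37, 6.24 and 7.31 under hsp-6 RNAi, without overlap and lowest in replicate 2. Germline genes, 46 in number, averaged 11.46, 11.12 and 11.32 with empty vector and 11.09, 10.91 and 11.07 under hsp-6 RNAi. Neuron genes, 14 in number, averaged 6.48, 6.63 and 6.45 against 6.69, 6.88 and 6.73. The groups thus did not overlap in the means of germline genes, which were lower, or of neuron genes, which were higher. None of the sperm, embryo or neuron genes was called. In the germline list 1 gene, fbf-2, was lower (2.17%, beside 0.752% of all genes). In the intestine list 1 gene, ftn-1, was higher (5%, beside 2.13%). The part of these lists in the results below was not tested.

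hsp-6 RNAi changed 330 of the 12057 probe sets (2.74%), of which 237 (1.97%) were higher and 93 (0.771%) lower. A probe set was called when the Benjamini-Hochberg adjusted p of limma was below 0.05. Both counts and their split depend on the double RNAi arrays that share the estimate of the spread: a fit of only the 6 arrays compared called 613 higher and 436 lower. When the 2 double RNAi arrays farthest from the rest were left out, which was decided with the data in view, 806 were higher and 875 lower, so that falls outnumbered rises. Among the 330 calls the rises were the larger changes: 91 of them exceeded 4-fold against 7 of the falls, and 42 exceeded 8-fold against 2. The median change over all probe sets was -0.02. The groups did not overlap in 39.7% of all probe sets (19.4% higher and 20.2% lower under hsp-6 RNAi), so a lack of overlap alone sets few genes apart. In 38 of the raised probe sets all 3 empty vector arrays read below log2 4, where the scale is compressed towards its minimum of 2.16. Without any 1 of the 12 arrays 81 of the 330 calls held, and 102 probe sets were called under hsp-6 RNAi replicates 1 and 3 averaged into 1 array (a choice made after seeing the data).

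**Figure D1:**
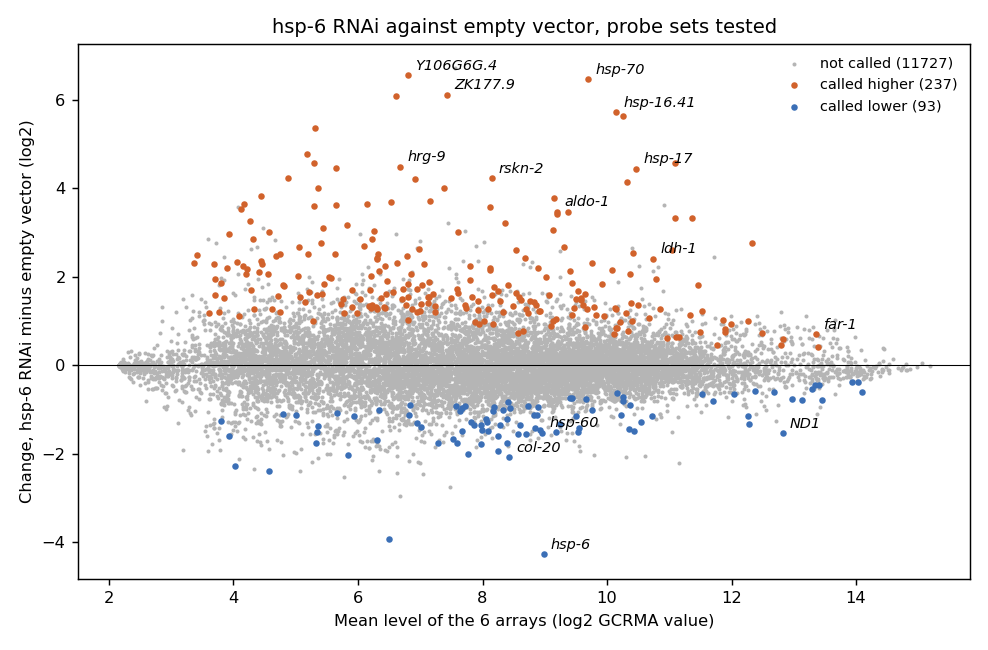
Each point is 1 of the 12057 probe sets tested, by its mean log2 GCRMA value over the 6 arrays (x) and the log2 difference between hsp-6 RNAi and empty vector (y). The 237 probe sets called higher reach 6.55, while the called falls other than hsp-6 end at -2.39.

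The target was strongly reduced. The hsp-6 probe set with the higher mean read 11.3, 10.96 and 11.1 with empty vector and 6.96, 6.97 and 6.6 under hsp-6 RNAi, a change of -4.28 (SE 0.30, limma adjusted p = 0.000187). A second one changed by -3.92 (adjusted p = 0.000971). All 3 hsp-6 RNAi arrays lay far below all 3 empty vector arrays on both.

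Cytosolic heat shock genes rose while the constitutive chaperones of the same compartment did not pass the test. hsp-70, a heat-inducible cytosolic Hsp70, read 6.83, 6.67 and 5.9 with empty vector and 13.13, 12.62 and 13.03 under hsp-6 RNAi. The small heat shock gene hsp-16.41 read 7.74, 8 and 6.1 against 13.27, 12.76 and 12.98. Its neighbour hsp-16.2 on chromosome V read 7.67, 7.66 and 6.99 against 13.12, 12.88 and 13.2. For each of these genes the groups lay several log2 units apart, and the hsp-6 RNAi arrays were the more alike. hsp-17, another small heat shock gene, read 6.84, 8.46 and 9.43 against 13.04, 12.22 and 12.8, so that the control arrays were the scattered ones. It was the only 1 of 9 other small heat shock genes to rise (11.1%, beside 2.13% of all genes). The change was 4.44 (limma adjusted p = 0.0111), and the call did not hold when hsp-6 RNAi replicate 1 or 3 was left out (adjusted p up to 0.0587).

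Among 38 tested constitutive chaperones and cochaperones of the cytosol none was called, beside 2.13% of all genes called higher and 0.752% lower. Their median change was -0.11, beside 0 over all genes. The cytosolic Hsc70 gene hsp-1 read 13.09, 12.72 and 13 with empty vector and 12.62, 12.58 and 12.62 under hsp-6 RNAi (-0.33, limma adjusted p = 0.258). The Hsp90 gene hsp-90 changed by 0.21 (adjusted p = 0.454), and its groups overlapped. Of 57 genes of the endoplasmic reticulum stress list 2 rose (3.51%, near the 2.13% of all genes called higher by 1 probe set each), pqn-73 by 2.01 and pqn-25 by 1.17, while the resident chaperones hsp-3 and hsp-4 gave -0.46 and -0.31 and were not called.

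Mitochondrial chaperones and proteases showed no shared rise. The list of these genes and of mitochondrial stress regulators had 16 tested members, and its median was 0.08. Of the 16, 1 rose and 1 fell (6.25% each, beside 2.13% and 0.752% of all genes). The 1 rise, hrg-9, is counted in the iron and heme list as well. The chaperonin hsp-60 fell, reading 9.81, 9.73 and 9.61 with empty vector and 8.33, 7.64 and 8.59 under hsp-6 RNAi (-1.53, limma adjusted p = 0.027). A second hsp-60 probe set gave -1.59 (adjusted p = 0.107, and 0.0183 in a fit of the 6 arrays alone), and the call on the first did not hold when any 1 empty vector array, or replicate 1 or 2 of the hsp-6 RNAi arrays, was left out (up to 0.106). Y22D7AL.10 gave -0.58 (adjusted p = 0.16). The matrix protease genes lonp-1 and clpp-1 gave 0.24 and 0.17, the cochaperone gene dnj-10 gave -0.28, and atfs-1, the transcription factor of the mitochondrial unfolded protein response, gave 0.36. None of these was called. hrg-9, which takes part in heme trafficking, was the member that rose: it read 4.2, 4.46 and 4.64 against 8.58, 9.65 and 8.54, with replicate 2 the highest (4.49, adjusted p = 0.00618). Its second probe set rose by 4.45.

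**Figure D2:**
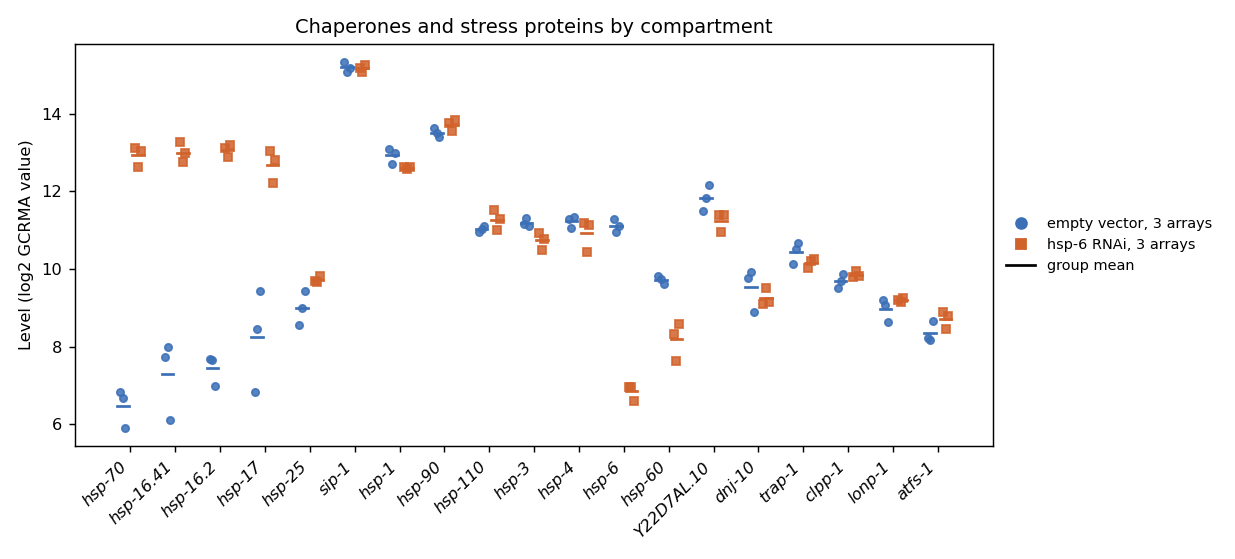
Log2 GCRMA values (y) of chaperones and stress proteins in the 3 empty vector and 3 hsp-6 RNAi arrays, with bars at group means; levels of different genes are not comparable. hsp-16.2, hsp-16.41, hsp-17 and hsp-70 lie far higher under hsp-6 RNAi, hsp-6 and hsp-60 lie lower, and the others differ little.

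Transcripts encoded by the mitochondrial genome were lower under hsp-6 RNAi. Of the 8 tested, 7 fell and none rose, with a median change of -0.78, beside 0.771% of all probe sets called lower; this group was chosen after its values were seen. ND1, a complex I subunit, read 13.47, 13.68 and 13.62 with empty vector and 12.11, 11.64 and 12.39 under hsp-6 RNAi (-1.54, SE 0.19, limma adjusted p = 0.0026). ATP6, a subunit of the ATP synthase, read 12.74, 13 and 12.79 against 11.86, 11.48 and 11.73 (-1.16, SE 0.13, adjusted p = 0.00205). COX1, a core subunit of cytochrome c oxidase, read 13.58, 13.61 and 13.37 against 12.75, 12.81 and 12.65 (-0.79, SE 0.11, adjusted p = 0.00526). Replicates were tight in both groups, so falls of less than 2-fold were separated from the spread. ND4 fell by 0.79, CYTB by 0.77, COX3 by 0.61 and COX2 by 0.60, while ND5 gave -0.25 (adjusted p = 0.447). The calls on ND1, ATP6 and COX1 held without any 1 array. Those on ND4, CYTB, COX3 and COX2 did not hold when 1 or another hsp-6 RNAi array was left out: replicate 2 or 3 for ND4, 2 for CYTB, 1 for COX3, and 1 or 3 for COX2 (adjusted p up to 0.0638).

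Nuclear genes for mitochondrial ribosomal proteins also fell in part. Of 57 tested, 7 fell and none rose, beside 0.752% of all genes called lower and 2.13% called higher. The median was -0.36. mrps-21, a protein of the small subunit, read 9.65, 9.81 and 10.34 with empty vector and 8.69, 8.07 and 8.49 under hsp-6 RNAi (limma adjusted p = 0.00742). The others were mrpl-12, mrps-25, mrps-12, mrpl-35, mrpl-22 and mrpl-37, with changes between -1.47 and -0.92. The empty vector arrays averaged 9.48, 9.52 and 9.9 over the list and the hsp-6 RNAi arrays 9.23, 9.11 and 9.28, so the groups did not overlap and empty vector replicate 3 was the highest. The call on mrps-21 held without any 1 array. Those on mrpl-12 and mrps-25 were lost without empty vector replicate 3 or any hsp-6 RNAi array. The mrpl-12 call was also lost without empty vector replicate 1 or 2 (adjusted p up to 0.0958). The remaining calls were lost too without at least 1 array, with adjusted p up to 0.178 for mrps-12 and 0.136 for mrpl-35. Of 76 cytosolic ribosomal protein genes 3 fell (3.95%, beside 0.752% of all genes), with a median of -0.17.

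Of 56 nuclear respiratory chain genes tested, 1 rose and 1 fell on their main probe set (1.79% each, beside 2.13% and 0.752% of all genes). The median was -0.19. Without overlap between the groups, 22 were lower and 7 higher, beside 1783 and 1881 of all 9172 genes. The ATP synthase gene atp-1 fell by 0.80 and the cytochrome c gene cyc-2.1 rose by 0.42 (limma adjusted p = 0.0379 and 0.0384), both calls lost without at least 1 array. The cytochrome c1 gene cyc-1 rose by 0.78 on a second probe set (adjusted p = 0.0399, up to 0.139 without 1 array) and gave 0.33 (adjusted p = 0.259) on the first. No gene of the tricarboxylic acid cycle was called on its main probe set. The malate dehydrogenase gene mdh-2 fell by 0.82 on a second probe set and gave -0.76 (adjusted p = 0.0659) on the first. In mitochondrial import none of 18 genes was called, and mppa-1, a subunit of the processing peptidase, gave -1.64 (adjusted p = 0.0539, and 0.0285 with the 6 arrays alone).

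**Figure D3:**
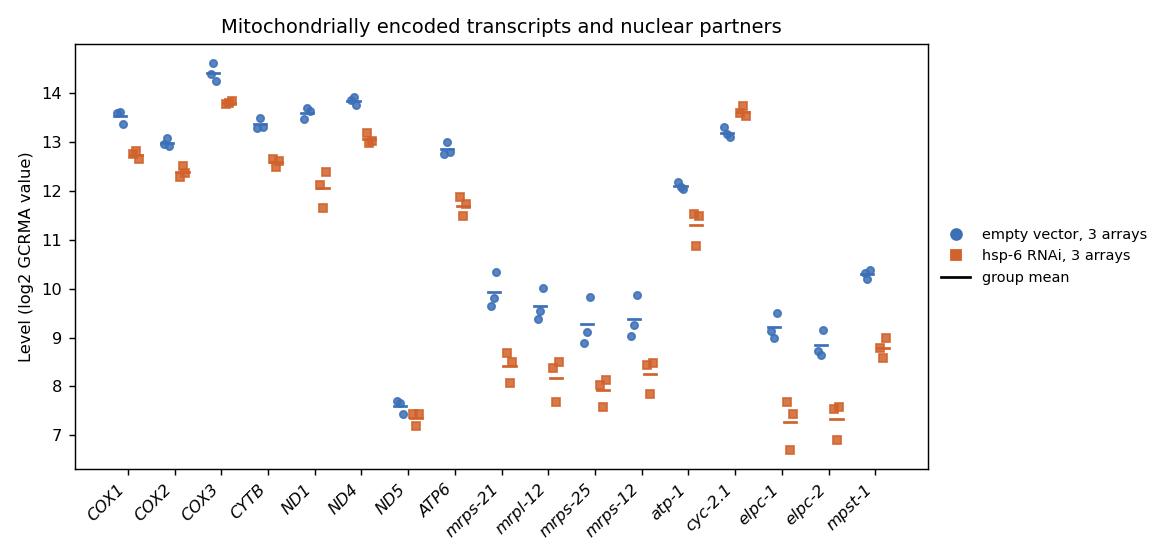
Log2 GCRMA values (y) of 8 transcripts of the mitochondrial genome and of nuclear genes for mitochondrial ribosomal proteins, respiration, the Elongator complex and sulfur metabolism in the 6 arrays, with bars at group means. ND1 and ATP6 show the widest gaps among the mitochondrial transcripts, the groups touch in ND5, and cyc-2.1 is the gene that lies higher under hsp-6 RNAi.

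Genes of sugar breakdown rose at a few steps. The aldolase gene aldo-1 read 7.43, 7.61 and 7.35 with empty vector and 10.88, 11.09 and 10.83 under hsp-6 RNAi, and a second probe set rose by 2.60. The lactate dehydrogenase gene ldh-1 read 9.3, 9.54 and 9.77 against 11.99, 11.9 and 11.95. The glyceraldehyde-3-phosphate dehydrogenase genes gpd-3 and gpd-2, neighbours on chromosome X, rose by 0.99 and 0.72 (limma adjusted p = 0.00686 and 0.0277), and mai-1, an inhibitor of the mitochondrial ATP synthase next to gpd-2, by 1.18. Other probe sets of gpd-3 and mai-1 gave 0.67 and 0.58 and were not called. gpd-2 and gpd-3 are close copies whose probes may share transcripts. Of 18 glycolysis and gluconeogenesis genes 3 rose on their main probe set (16.7%, beside 2.13% of all genes), none fell, and the median was 0.20.

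Lipid genes changed singly. The desaturase gene fat-5 read 9.68, 10.08 and 9.27 with empty vector and 11.24, 10.78 and 11.24 under hsp-6 RNAi (1.41, limma adjusted p = 0.0117), and its call did not hold when hsp-6 RNAi replicate 1 or 3 was left out (0.0644). The related fat-7 read 7, 8.68 and 7.31 against 10.23, 8.9 and 10.51 (2.21, adjusted p = 0.0658). Phospholipase ipla-7 rose by 1.45 and 1.34 on its probe sets, the acyltransferase acl-12 by 1.51 and the phosphotransferase ept-1 by 0.63. Another acl-12 probe set gave 1.3 and was not called. lonp-2, a Lon protease of peroxisomes, rose by 1.49, and prx-19, which helps insert peroxisomal membrane proteins, by 0.84. None of 50 fatty acid oxidation genes was called, beside 2.13% of all genes called higher and 0.752% lower.

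Several kinase and receptor genes were among the rises. rskn-2, of the ribosomal S6 kinase family, read 6.59, 6.14 and 5.38 with empty vector and 10.18, 10.59 and 9.99 under hsp-6 RNAi (4.22, limma adjusted p = 0.0026), and its second probe set rose by 3.05. mnk-1, a MAP kinase-interacting kinase, rose by 4.20 and 3.1 on its probe sets. The groups were far apart on each. kgb-1, a JNK-like kinase, read 6.17, 6.26 and 6.26 against 7.45, 7.53 and 7.55 (1.27, adjusted p = 0.0407), and its paralog kgb-2 gave 1.27 (adjusted p = 0.0813, and 0.027 with the 6 arrays alone). The receptor of pigment dispersing factor neuropeptides, pdfr-1, rose by 3.68 and 2.51, the G protein subunit gpa-1 by 3.03, and the peptide receptor genes trhr-1, gnrr-2 and npr-42 by 2.51, 2.29 and 1.85. Calls on rskn-2 and pdfr-1 (both probe sets), trhr-1, gnrr-2 and npr-42 held without any 1 array; so did the smaller rise of mnk-1. The larger rise of mnk-1 was no longer called when any 1 of the 6 arrays compared was left out (adjusted p up to 0.0714). The call on gpa-1 needed empty vector replicate 3 and each hsp-6 RNAi array (up to 0.08), and that on kgb-1 was lost without at least 1 array (up to 0.146). The receptor genes were picked after their values were seen.

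Further single genes that rose were picked after their values were seen, and no list stands behind them. ncx-4, a sodium-calcium exchanger, read 2.28, 2.54 and 2.75 with empty vector and 6.13, 6.73 and 6.18 under hsp-6 RNAi. jph-1, which encodes junctophilin, rose by 2.85, and trak-1, an adaptor for moving mitochondria along microtubules, by 1.61. All 3 of these calls held without any 1 array. The beta-tubulin gene tbb-6 read 6.67, 7.6 and 6.79 against 9.16, 9.23 and 9.25 (2.19, limma adjusted p = 0.0498), just inside the threshold. The stress gene sesn-1, which encodes sestrin, rose by 1.01.

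Of 13 iron and heme genes 2 rose, ftn-1 and hrg-9, the latter counted above too (15.4%, beside 2.13% of all genes), and none fell. Without overlap between the groups, 7 were higher and 3 lower, beside 1881 and 1783 of all 9172 genes. The 3 lower ones were not called. The ferritin gene ftn-1 read 9.49, 10.21 and 7.72 with empty vector and 11.47, 12.15 and 11.41 under hsp-6 RNAi (2.54, limma adjusted p = 0.0225), empty vector replicate 3 being lowest. It was no longer called when empty vector replicate 1 or any 1 hsp-6 RNAi array was left out (up to 0.104). Outside that list, the iron exporter gene fpn-1.1 rose by 2.42, the zinc transporter genes zipt-2.1 and slc-30A9 by 1.76 and 1.7, and cdr-4, a cadmium-responsive gene, by 3.32. The folate transporter gene folt-1 rose by 2.70, and the inositol transporter gene hmit-1.1 by 2.36. fpn-1.1 and folt-1 belong to no list and were chosen after their values were seen. Of 84 genes listed for solute, amino acid and ion transport 5 rose (5.95%, beside 2.13% of all genes) and none fell.

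A few UDP-glucuronosyltransferase and cytochrome P450 genes and 1 glutathione transferase gene rose, beside 2.13% of all genes. Of 42 UDP-glucuronosyltransferases 2 rose (4.76%), ugt-1 by 3.17 (limma adjusted p = 0.0026) and ugt-27 by 2.24. Of 42 cytochrome P450 genes 3 rose (7.14%), cyp-36A1 by 3.63, cyp-33C8 by 3.21 and cyp-43A1 by 1.51, and of 27 glutathione transferases 1 rose (3.7%), gst-22. The medians of these lists were 0.58, 0.58 and 0.70. Of 27 ABC transporter genes none rose and 1 fell, haf-6 (3.7%, beside 0.752% of all genes), with a median of 0.29. cyp-14A4 read 2.16 in all 3 empty vector arrays, and 3.73, 7.78 and 3.53 under hsp-6 RNAi: hsp-6 RNAi replicate 2 alone was high, and the gene was not called (adjusted p = 0.296). The P450 list averaged 6.35, 7.03 and 6.31 over the hsp-6 RNAi arrays, replicate 2 again the highest. Replicate 2 was also far the highest in the called cyp-33C8, which read 9.16, 11.38 and 9.37 under hsp-6 RNAi. Each of the 3 P450 calls was lost without at least 1 array (adjusted p up to 0.133). The superoxide dismutase gene sod-3 rose by 1.38, and gst-4 read 8.1, 9.61 and 9.25 against 10.14, 10.43 and 10.19 without being called (adjusted p = 0.158).

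**Figure D4:**
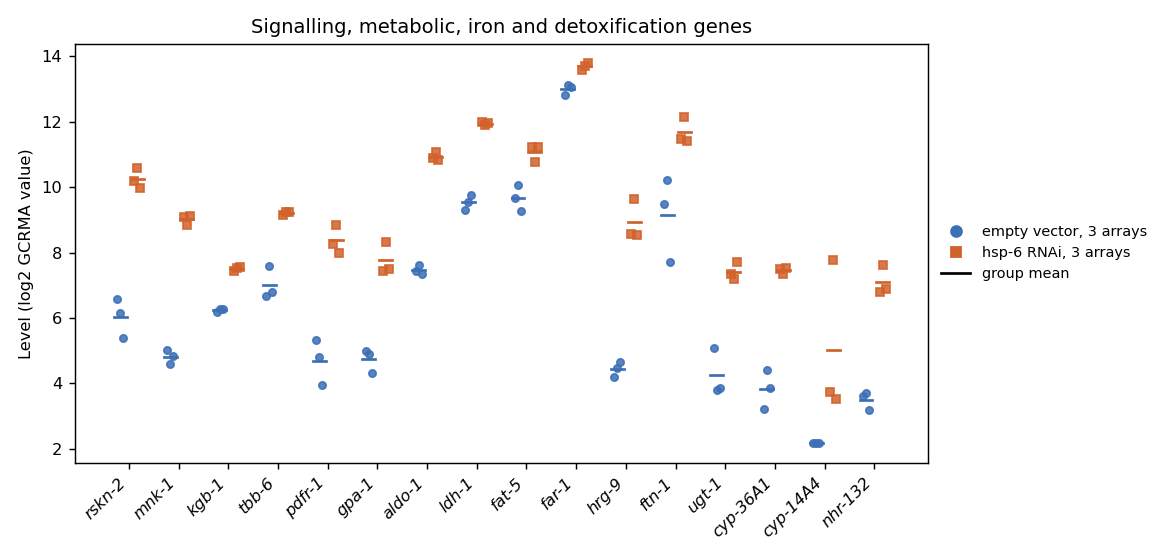
Log2 GCRMA values (y) of kinase, receptor, metabolic, iron and detoxification genes in the 3 empty vector and 3 hsp-6 RNAi arrays, with bars at group means. The groups do not overlap in any gene shown, and in cyp-14A4 hsp-6 RNAi replicate 2 at 7.78 stands far above 3.73 and 3.53.

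Of 64 antimicrobial peptide and lysozyme genes 5 rose (7.81%, beside 2.13% of all genes) and none fell, with a median of 0.65. cnc-4, a caenacin, read 8.47, 9.19 and 7.89 with empty vector and 10.27, 10.67 and 10.15 under hsp-6 RNAi (1.85, limma adjusted p = 0.00757). The others were cnc-6, spp-24, nlp-29 and abf-1, with rises of 2.12 to 1.31. The calls on cnc-4 and spp-24 held without any 1 array. Those on cnc-6, nlp-29 and abf-1 (adjusted p = 0.0458, 0.0473 and 0.0463) were each lost without at least 1 array (up to 0.193). Of 166 F-box, MATH and SKP1-related genes 7 rose (4.22%), among them fbxa-163 by 2.85 and skr-5 by 1.82. In that list fbxb-67 fell by 2.28 (0.602%, beside 0.752% of all genes), and the median was -0.02. Of 110 nuclear hormone receptor genes 5 rose (4.55%), nhr-132 by 3.60 and nhr-57 by 2.52 the furthest. Beside 2.13% of all genes called higher and 0.752% lower, none of 31 stress and longevity transcription factors was called. Among these zip-10 read 5.1, 5.53 and 6.63 against 7.68, 7.77 and 7.64 (1.94, adjusted p = 0.084). pqm-1 read 7.23, 7.39 and 7.79 against 9.35, 8.71 and 9.4 (1.69, adjusted p = 0.205). The groups lay apart in both genes, and a fit of only the 6 arrays compared called both (adjusted p = 0.0391 for zip-10 and 0.0211 for pqm-1).

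Of 40 translation factor genes 1 fell, clu-1 (2.5%, beside 0.752% of all genes), and none rose. Single genes with roles in RNA handling also fell and were mostly chosen after their values were seen. elpc-1, a subunit of the Elongator complex that modifies transfer RNAs, read 9.13, 9 and 9.51 with empty vector and 7.69, 6.71 and 7.43 under hsp-6 RNAi (-1.94, limma adjusted p = 0.0239). elpc-2, of the same complex, fell by 1.5 on 1 of its probe sets and gave -1.32 (adjusted p = 0.0877) on the other, and elpc-3 gave -0.79 (adjusted p = 0.14). glp-4, which encodes valyl-tRNA synthetase, fell by 1.47, the cytosolic poly(A)-binding protein gene pab-1 by 0.59 and 0.66, and clu-1, which affects the placement of mitochondria, by 1.29. The Argonaute genes alg-1 and alg-3 went opposite ways. alg-1, of the microRNA pathway, fell by 1.7 and 1.1 on 2 probe sets and gave -0.59 (adjusted p = 0.404) on another, while alg-3, of the sperm small RNA pathway, rose by 3.64 (adjusted p = 0.00742). elpc-1 was no longer called when empty vector replicate 1 or 3, or any hsp-6 RNAi array, was left out (up to 0.104), and that on glp-4 held without any 1 array.

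Other falls were of single genes. The collagen gene col-20 read 8.81, 9.87 and 9.7 with empty vector and 7.33, 7.25 and 7.56 under hsp-6 RNAi (-2.08, limma adjusted p = 0.00391). Of 103 collagens 2 rose (1.94%, beside 2.13% of all genes) and 2 fell (1.94%, beside 0.752%). Their median was -0.39. The list averaged 6.41, 7.31 and 7.01 with empty vector and 6.55, 6.5 and 6.5 under hsp-6 RNAi, so the groups overlapped. rol-6 rose by 3.77 (adjusted p = 0.0477), a call lost when any 1 of the 6 arrays compared was left out (up to 0.156). The immunoglobulin-domain genes igcm-1 and wrk-1 fell by 2.39 and 1.77, but a second wrk-1 probe set gave -0.12 and was not called. The germline regulator fbf-2 fell by 1.77, and mpst-1, a mercaptopyruvate sulfurtransferase, read 10.32, 10.2 and 10.37 against 8.78, 8.59 and 8.99. The nicotinamidase gene pnc-1 fell by 1.21.

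Some of the raised genes have no name beyond a sequence name. Y106G6G.4 read 3.6, 3.6 and 3.38 with empty vector and 9.99, 10.32 and 9.93 under hsp-6 RNAi (6.55, limma adjusted p = 0.000557). ZK177.9 rose by 6.11, C46A5.1 by 6.09, K01C8.2 by 4.78 and K02A2.5 by 4.57. C07G1.7 read 4.03, 4.24 and 4.32 against 10.95, 10.64 and 11.12, the groups far apart, yet was not called (adjusted p = 0.0539; 7.53e-05 in a fit of the 6 arrays alone). Of 205 raised genes 79 (38.5%) had only a sequence name, near the 33.8% of all genes tested, and of 79 lowered genes 22 (27.8%).

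Some raised genes were chromosomal neighbours. Each raised gene was set beside its tested immediate neighbours, giving 205 relations. In 18 of these the neighbour was raised too (8.78%), beside 2.24% of all genes. Each pair of raised genes counts from both sides, so these are 9 pairs of 17 genes. In the 100 relations of lowered genes no neighbour was lowered, near the 0.86% of all genes that were lowered. The 9 neighbouring pairs included hsp-16.2 with hsp-16.41, gpd-3 with gpd-2, rskn-2 with C54G4.7, and nhr-65 with nhr-230. Whether shared probes or operons take part was not tested. Where a called gene had several tested probe sets, they pointed the same way in 62 of 63 genes, the exception being pqe-1, and no gene had probe sets called in opposite directions.

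**Figure D5:**
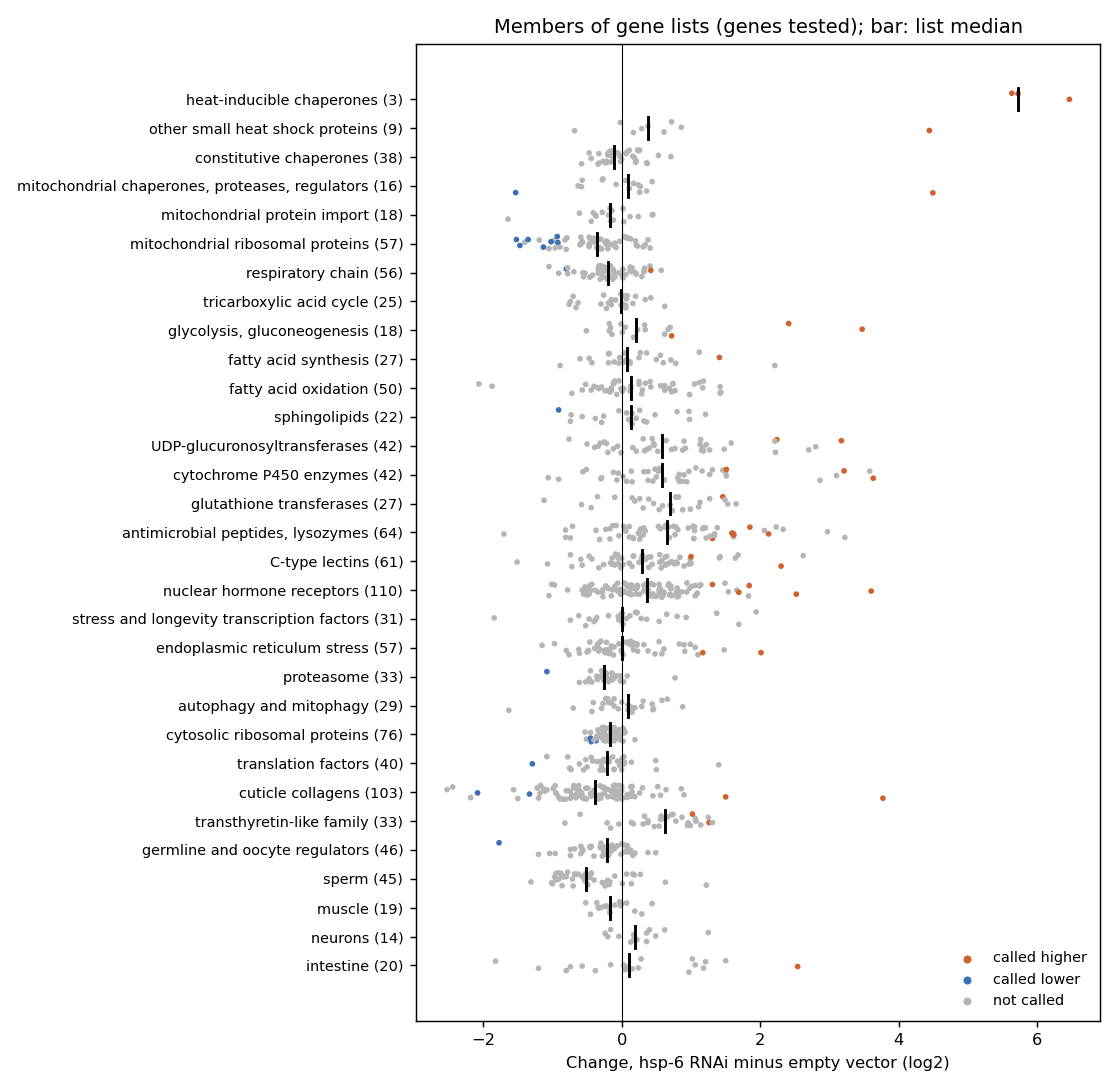
Each point is 1 tested gene of the named list, by its log2 difference between hsp-6 RNAi and empty vector (x), with a bar at the list median and the number of genes in brackets. The heat-inducible chaperones stand near 6, most lists have medians within 0.7 of 0, and outside the heat-inducible chaperones most members of each list were not called.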

How the data were processed

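Whole-worm total RNA was measured on Affymetrix arrays. The deposited values are log2 GCRMA values per probe set, for which the authors used GCOS 1.4 and GCRMA, per the submitters' processing notes; its settings were not given in the sources used here. Precision is limited by the number of arrays. The array annotation named the probe sets (20766 with 1 symbol, 887 with several, 895 with none, 77 controls), and chromosomes and neighbours came from a RefSeq table. limma 3.58.1 in R 4.3.3 was fitted to 12 arrays as 4 group means with an intensity trend (8 residual and 3.16 prior degrees of freedom); tests were two-sided, with Benjamini-Hochberg adjustment over all 12057 probe sets. The fit was tested on simulated data. Each gene of the 59 lists was represented by its probe set with the highest mean. The members, lists and tests were chosen with earlier results of these data known, and no list was tested as a set. Named genes are the target, the 20 largest called rises and falls, up to 5 called members per list and a list of stress and metabolic genes; others, such as the mitochondrially encoded transcripts, were chosen after their values were seen. Alternatives were other filters, normalizations and variance models, a floor, the 6 arrays alone, a replicate block and leaving out each array. Replicate numbers did not pair samples: deviations correlated by 0.1, 0.02 and -0.05 across groups. Figures were drawn with matplotlib 3.10.9.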

Additional observations from a re-analysis of the deposited data

How the results depend on the processing

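All 330 calls kept their direction under the settings tried, or 283 of the 283 still tested with a minimum of log2 6; 81 kept their call without any 1 of the 12 arrays and 249 lost it without at least 1. The hsp-6 change ranged from -4.36 to -4.16 without single arrays and stayed called under every setting. Leaving out 1 array gave 78 to 428 probe sets higher and 19 to 311 lower. A fit of only the 6 arrays compared gave 613 higher and 436 lower. With the replicate number as a block, 201 were higher and 53 lower; the samples are not known to be paired. With hsp-6 RNAi replicates 1 and 3 averaged, 80 were higher and 22 lower, and without the outlying double RNAi arrays (replicate 3 of the hsf-1 group and replicate 2 of the group labelled hsp-6;dve-1), 806 and 875; these settings were chosen after seeing the data. The other filters, normalizations and variance models gave 186 to 255 higher and 83 to 135 lower. The cause was not tested.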
